A study of Mus musculus with 4 samples.

Results

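The Schlafen (Slfn) genes of mouse chromosome 11 were examined in fibroblasts that met interferon-beta for 1 h, either for the first time (naive) or after an earlier exposure (pretreated). Members were the rows with a transcript ID whose position overlaps chromosome 11 from 82762000 to 83032000 in the mm9 genome build. This found 10 of the 17576 rows in the table, of which 15883 have a transcript ID. Of the 10 rows, 8 belong to Schlafen genes (Slfn5, Slfn9, Slfn8, Slfn10-ps, Slfn2, Slfn1, Slfn4 and Slfn3). The other two belong to Unc45b, whose row shares its span with Slfn5, and to Gm20234, an antisense gene that overlaps Slfn2. The rule uses position and no measured value.

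Both groups are mouse embryonic fibroblasts (MEFs, connective tissue cells grown from embryos) of strain C57BL/6 in which a tagged copy of the histone variant H3.3 (H3.3-HA) replaces the H3f3b gene. Both received interferon-beta, a type I interferon, at 100 U/ml for 1 h, and they differ in the pretreatment. The labels do not give the length of the pretreatment, the interval after it or the number of embryos, and no group without the knock-in is described. The series has 4 samples in 4 groups. Each group has 1 library, and the 2 libraries at 1 h were compared; those at 0 h were not analysed here. In every difference below, a level already present before the stimulation therefore cannot be told apart from induction during the hour. No value below therefore has a replicate error, no difference has a replicate check. Values are set side by side without a test across samples. The labels name the assay both RNA-seq and scTSS-seq, and it is treated here as RNA-seq.

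Schlafen genes are a family that expanded in rodents, and several of its members are induced by type I interferon. The proteins share an N-terminal Schlafen core. In mice they are grouped as short members (Slfn1, Slfn2), intermediate members (Slfn3, Slfn4) and long members with a helicase-like domain (Slfn5, Slfn8, Slfn9, Slfn10). They are best known from T cells and macrophages, where they are linked to quiescence and differentiation, and some human long members restrict viruses by acting on tRNA.

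Promoter sequences are shown for the 2 Schlafen genes past 2-fold in log2(FPKM + 1) (Slfn2 and Slfn8), for Slfn9, whose promoter resembles that of Slfn8, and for Slfn5, whose value was lower in pretreated cells. Each is 300 bases, from 250 before to 50 after a start site, taken from RefSeq on GRCm38.p6, written 5′ to 3′ on the strand of the gene. Capitals mark matches on either strand to GAAANNGAAA, the core of the interferon-stimulated response element (ISRE) bound by ISGF3 and IRF factors, or to GGAANNGAAA, the composite site of ETS and IRF factors.
Slfn2 (chr11:83064862-83065161, + strand): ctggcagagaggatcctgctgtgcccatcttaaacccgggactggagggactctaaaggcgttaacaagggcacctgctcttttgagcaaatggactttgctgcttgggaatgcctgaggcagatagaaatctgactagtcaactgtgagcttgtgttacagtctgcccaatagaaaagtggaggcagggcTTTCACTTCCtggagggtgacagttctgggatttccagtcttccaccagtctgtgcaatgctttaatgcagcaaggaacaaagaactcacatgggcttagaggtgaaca
Slfn8 (chr11:83020761-83021060, - strand): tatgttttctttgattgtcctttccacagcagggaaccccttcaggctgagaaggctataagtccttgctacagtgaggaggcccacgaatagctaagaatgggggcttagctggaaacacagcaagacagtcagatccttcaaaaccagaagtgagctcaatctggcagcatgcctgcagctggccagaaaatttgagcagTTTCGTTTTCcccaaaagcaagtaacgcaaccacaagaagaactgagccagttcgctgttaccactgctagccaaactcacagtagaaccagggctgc
Slfn9 (chr11:82991781-82992080, - strand): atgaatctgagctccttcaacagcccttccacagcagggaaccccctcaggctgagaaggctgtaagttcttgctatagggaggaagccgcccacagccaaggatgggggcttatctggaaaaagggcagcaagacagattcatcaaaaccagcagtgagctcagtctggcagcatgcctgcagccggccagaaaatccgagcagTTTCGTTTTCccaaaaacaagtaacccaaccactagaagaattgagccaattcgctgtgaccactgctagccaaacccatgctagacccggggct
Slfn5 (chr11:82951852-82952151, + strand): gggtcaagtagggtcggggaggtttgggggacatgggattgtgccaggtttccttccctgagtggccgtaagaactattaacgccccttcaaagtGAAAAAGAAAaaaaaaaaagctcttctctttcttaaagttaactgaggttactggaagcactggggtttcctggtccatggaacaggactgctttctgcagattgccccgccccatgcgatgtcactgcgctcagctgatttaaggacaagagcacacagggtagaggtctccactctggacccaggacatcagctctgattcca
Slfn8 and Slfn9 carry the same 10 letters, TTTCGTTTTC, in the printed windows, starting 48 and 45 bases upstream of their start sites. RefSeq gives another start site for Slfn8, not printed, from which the same match starts 136 bases upstream. The similar spacing therefore depends on the start site chosen. Slfn5 has GAAAAAGAAA, starting 155 bases upstream in a run of A. Slfn2 has no match to the ISRE core in this window, and holds TTTCACTTCC, a match to the composite motif, starting 59 bases upstream. The second motif was added after the Slfn2 sequence had been seen. Of 32851 promoters of this length, 3.44% hold the ISRE core and 2.72% the composite motif. RefSeq windows were found for 7 of the 8 Schlafen genes, and Slfn1, Slfn4 and Slfn3 hold neither motif in theirs. The interferon-gamma activated site motif TTCNNNGAA was found in none of these windows, against 8.30% of all promoters. The printed windows of Slfn8 and Slfn9 align with 248 identical bases of 292, while every other pair of the 7 genes has 169 identical bases or fewer.

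Slfn2, a short member needed for the quiescence of T cells, showed the largest difference of the cluster in FPKM and in log2(FPKM + 1). Its level was 7.27 FPKM (fragments scaled by transcript length and by mapped fragments) in the naive library and 107 FPKM in the pretreated library. Its row, XLOC_003561, shares the span from 82878614 to 82884748 on chromosome 11 (mm9) with that of Gm20234. The left end of this span is that of Slfn2 and the right end that of Gm20234, and the 2 rows were told apart by the block of locus numbers, which follows the strand. The pretreated value was 14.8 times the naive value, a change of 3.71 in log2(FPKM + 1), a scale that understates the change of low rows. Among the 10228 loci compared (those whose FPKM averaged 1 or more over the libraries), this change ranked 27 from the highest. In the authors' deposited table, Slfn2 carries a significant call with a q-value listed as 0, from a test on the reads of these 2 libraries and not on the conditions. In bulk RNA, more cells that express a gene and more RNA per cell cannot be told apart.

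Slfn8, a long member, was the other row past 2-fold in log2(FPKM + 1). It lies from 82815660 to 82834312 (XLOC_004463) and had 4.67 FPKM in the naive and 13.8 FPKM in the pretreated library. The pretreated value was 2.96 times the naive value, a change of 1.39 in log2(FPKM + 1) that ranked 176. The authors' deposited table gives it a q-value of 4.74e-13 and a significant call.

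Slfn9, its neighbour with the similar promoter, hardly differed between the libraries. It lies from 82791368 to 82805332 (XLOC_004462) and had 13.5 FPKM in the naive and 13.96 FPKM in the pretreated library, a change of 0.05. In naive cells the level of Slfn8 was 0.347 times that of Slfn9, and in pretreated cells it was 0.992 times that of Slfn9. Thus in FPKM the 2 genes stood apart in the naive library and were level in the pretreated one. Such a comparison of genes rests on the scaling by transcript length, which treats the assay as RNA-seq. It also rests on the split of reads between related genes, described below.

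Intervals for these ratios follow from the test statistic in the authors' deposited table and cover their model of read sampling only. The 95% interval of the ratio of pretreated to naive is 8.81 to 24.8 for Slfn2, 2.26 to 3.87 for Slfn8 and 0.810 to 1.33 for Slfn9. The intervals of Slfn8 and Slfn9 do not overlap. Whether their changes differ beyond the variation between cultures was not tested, as each group has 1 library.

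Slfn10-ps, a transcribed pseudogene close to Slfn8 and Slfn9, lies from 82841630 to 82854035 (XLOC_004464). It had 1.17 FPKM in the naive and 1.82 FPKM in the pretreated library, a change of 0.38, and the interval from the authors' deposited table, 0.930 to 2.59 times, includes no change. Slfn5 (XLOC_003560), the long member at the edge of the cluster, had 6.51 FPKM in the naive and 4.72 FPKM in the pretreated library, a change of -0.39. Its interval from the authors' deposited table, 0.481 to 1.09 times, also includes no change, and it has no call there (q-value 0.308). It was the only Schlafen row above 1 FPKM in both libraries that was lower in pretreated cells. The median change of all compared loci was itself -0.16, and centred on it the change of Slfn5 was -0.24. The span of Slfn5, from 82724755 to 82778352, covers 2 genes. Its row was told from that of Unc45b by the numbering of loci, so the name rests on that order.

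**Figure D1:**
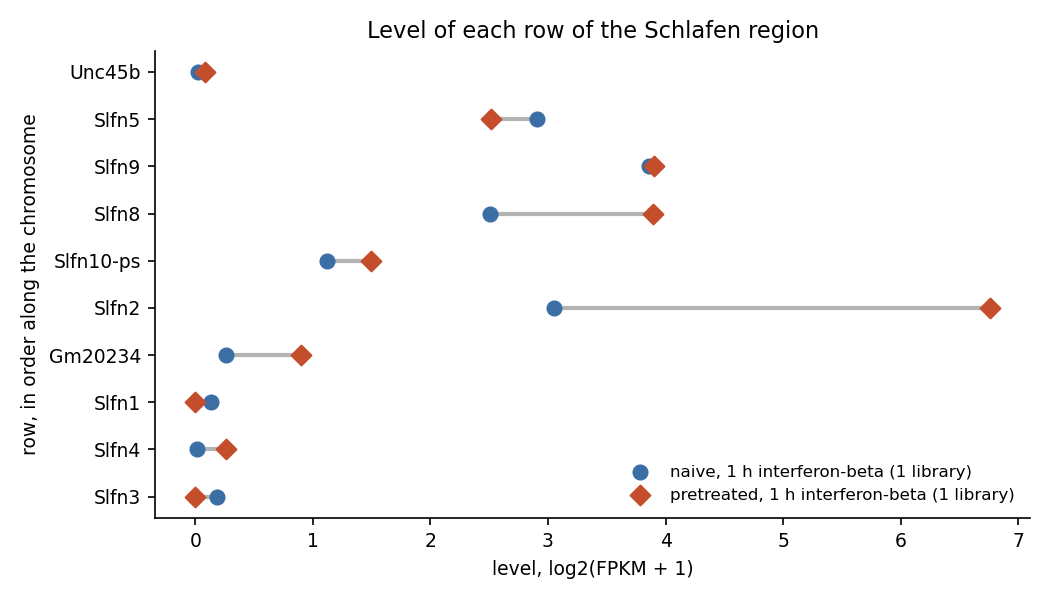
Level of each of the 10 rows in log2(FPKM + 1), with a circle for the naive and a diamond for the pretreated library, 1 library each. Slfn2 goes from 7.27 to 107 FPKM and Slfn8 from 4.67 to 13.8 FPKM, while Slfn9 stays near 13.96 FPKM and Slfn1, Slfn4 and Slfn3 lie near 0.

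Slfn1, Slfn4 and Slfn3, the short and intermediate members next to Slfn2 on its right, were at very low levels in both libraries. Slfn1 (XLOC_003562), from 82930347 to 82936161, stood at 0.1003 FPKM in the naive library, and the pretreated value is listed at 0. Slfn4 (XLOC_003563), a macrophage gene, from 82988688 to 83003718, had 0.0128 FPKM in the naive and 0.198 FPKM in the pretreated library. This ratio, 15.5, was above that of Slfn2, with an interval from the authors' deposited table of 1.08 to 224 times. Slfn3 (XLOC_003564), from 83004832 to 83028656, stood at 0.140 FPKM in the naive library, and its pretreated value too is listed at 0. The authors left all 3 rows untested, and their deposited table lists unadjusted p-values of 0.0169 for Slfn1, 0.0441 for Slfn4 and 0.00877 for Slfn3, with no call. The number of reads behind these values is unknown. Untested rows of the whole table reach at most 0.275 FPKM in the naive and 0.556 FPKM in the pretreated library.

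The other rows of the region were also low. Unc45b (XLOC_003559), which encodes a myosin chaperone of muscle, had 0.0144 FPKM in the naive and 0.0588 FPKM in the pretreated library. Gm20234 (XLOC_004465), antisense to Slfn2, had 0.198 FPKM in the naive and 0.866 FPKM in the pretreated library, 4.36 times the naive value, with no call in the authors' deposited table (q-value 0.135). Slfn2 was 36.6 times as high as Gm20234 in naive and 124 times as high in pretreated cells. The labels do not say whether the libraries keep the strand, and without it reads of Slfn2 and of Gm20234 cannot be told apart where they overlap.

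Across the region, 2 of the 10 rows were at least 2-fold higher in log2(FPKM + 1) in pretreated cells and 0 were at least 2-fold lower. The share of all 10228 compared loci at least 2-fold higher was 2.83%, and the share at least 2-fold lower was 7.12%. Only 5 of the 10 rows (Slfn5, Slfn9, Slfn8, Slfn10-ps and Slfn2) reached a mean of 1 FPKM and were among the loci compared. These 5 include both rows past 2-fold. With no filter on low values, 314 of 17552 loci were higher and 868 lower. By plain ratio the low rows Slfn4 (15.5), Gm20234 (4.36) and Unc45b (4.08) also passed 2-fold, while Slfn1 and Slfn3 are listed at 0 in the pretreated library. In the authors' deposited table, 6 of the 10 rows were tested and 2 were called, both higher, where 3.91% of the 13388 tested rows were called higher and 11.9% lower. The median change was 0.38 over the 5 rows compared and 0.15 over all 10, beside -0.16 over all compared loci. Both rows past 2-fold remained so after centring on that median, which turned the counts over all loci from 289 higher and 728 lower into 423 and 527. At a threshold of 4-fold 1 row was left, Slfn2, where 0.968% of loci were higher. With a pseudocount of 0.1 and every usable locus kept, a setting chosen after seeing the data, 4 of the 10 rows were higher (Slfn2, Slfn8, Slfn4 and Gm20234) and 2 lower (Slfn1 and Slfn3), against 6.55% and 12.7% of all loci.

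**Figure D2:**
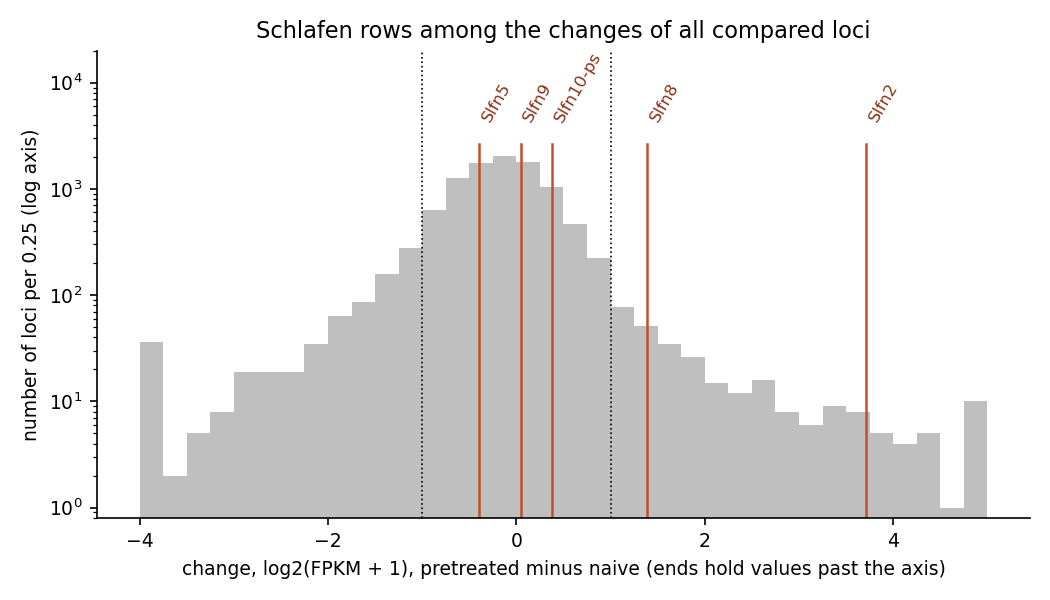
Changes in log2(FPKM + 1), pretreated minus naive, of the 10228 loci compared (grey bars, number of loci on a log axis) and of the 5 Schlafen rows among them (lines), with dotted lines at 2-fold. Slfn2 (3.71) and Slfn8 (1.39) lie to the right of the 2-fold line, and Slfn5 (-0.39), Slfn9 (0.05) and Slfn10-ps (0.38) lie within it.

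The make-up of the Schlafen signal differed between the libraries. The 8 Schlafen rows summed to 33.4 FPKM in the naive and 142 FPKM in the pretreated library, a ratio of 4.25. Slfn9 held the largest share in naive cells, 40.4%, followed by Slfn2 with 21.8%, Slfn5 with 19.5% and Slfn8 with 14.02%. In pretreated cells Slfn2 held 75.65%, while Slfn9 held 9.84%, Slfn8 9.76% and Slfn5 3.33%. These shares compare genes, so they too rest on the scaling by transcript length and on the split of reads. Without Slfn2 the sums were 26.1 FPKM in the naive and 34.5 FPKM in the pretreated library, a ratio of 1.32.

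Rows beside the cluster did not share the size of these differences. The 5 nearest rows with a transcript ID on each side ranged in change from -0.38, at Zfp830, to 0.28, at Nle1, which encodes a ribosome assembly factor. Of these 10 rows, 0 were past 2-fold in either direction, where 2.83% of all compared loci were higher and 7.12% lower. Some neighbours, such as Nle1 (0.743 FPKM in the naive and 1.11 FPKM in the pretreated library), averaged below 1 FPKM and are not among the compared loci. With no filter on low values, 314 of 17552 loci were higher and 868 lower. Of the 8 neighbours that the authors tested, their deposited table called 0, where 3.91% of all tested rows were called higher and 11.9% lower. At such shares, counts of 0 in so few rows are not particular to these neighbours. The scale also understates changes of low neighbours, such as Mmp28 with 0.0836 FPKM in the naive and 0.196 FPKM in the pretreated library. Within the cluster the rows past 2-fold were not adjacent, since Slfn10-ps lies between Slfn8 and Slfn2.

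**Figure D3:**
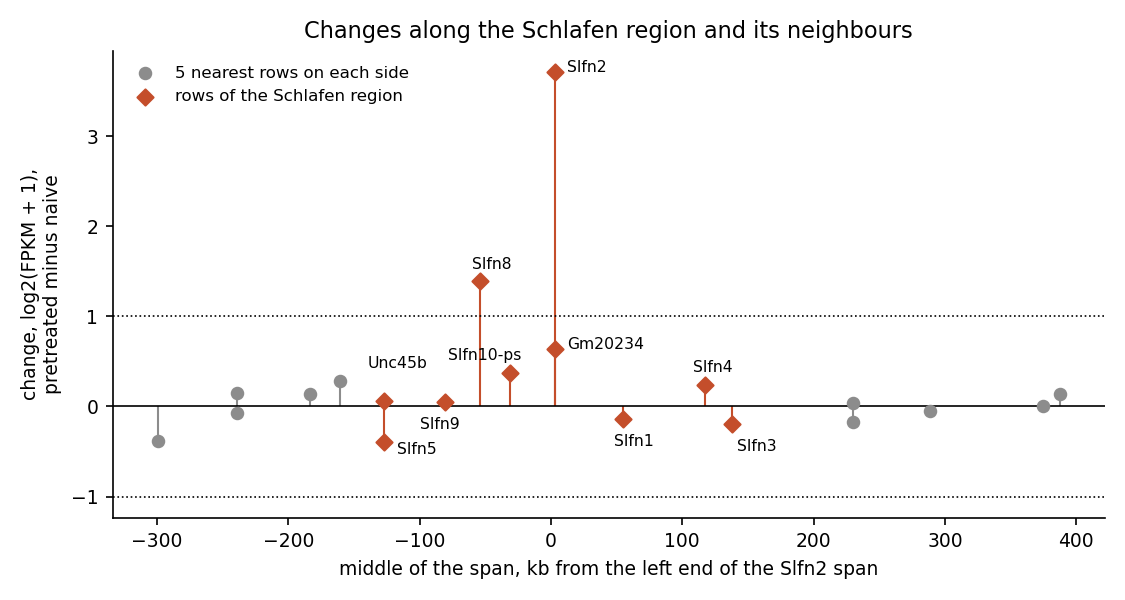
Change in log2(FPKM + 1), pretreated minus naive, of the 10 rows of the region (diamonds) and of the 5 nearest rows on each side (circles), against the distance in kb of the middle of each span from the left end of the Slfn2 span. Slfn2 and Slfn8 are past the dotted 2-fold line, and the neighbours lie between -0.38 and 0.28.

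Related Schlafen genes share stretches of sequence, so the split of reads between them is uncertain. In the GENCODE M21 transcripts, 14.6% of the stretches of 50 bases of Slfn8 also occur in another gene of the region. Transcripts were compared on their own strand only, so antisense overlap, as of Gm20234 with Slfn2, was not counted. The share was 11.2% for Slfn9 and 19.7% for Slfn10-ps, and these 3 genes share stretches only with each other. For Slfn2 it was 4.27%, all of it with Slfn4. The 0.198 FPKM or less listed for Slfn4 rests on the same split of reads. In turn, 1.72% of the stretches of Slfn4 occur in Slfn2. Whether reads of Slfn2 entered the value of Slfn4 was not tested. Slfn5 shared none with any other gene of the region. The read length, and how reads with several matches were treated, are not given in the sources used here.

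**Figure D4:**
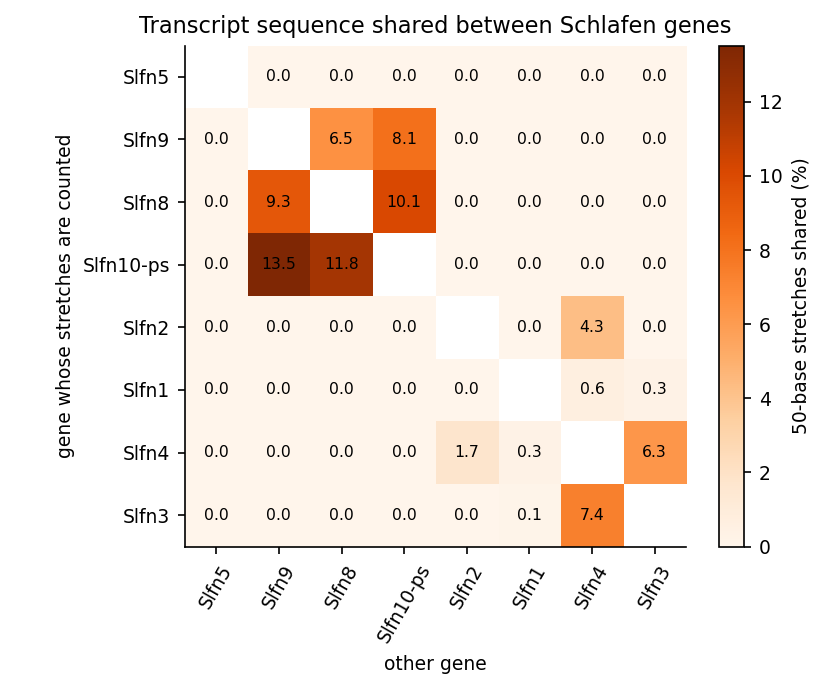
Percentage of the distinct 50-base stretches of each Schlafen gene (rows) that also occur in another (columns), from GENCODE M21 transcripts read on their own strand. Slfn9, Slfn8 and Slfn10-ps form a block that reaches 13.5%, Slfn3 and Slfn4 share 7.39% and 6.28%, and Slfn2 shares 4.27% with Slfn4.

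Other genes of the interferon pathway were read from fixed lists as far as their rows could be named. Of 10 receptor and signalling genes, 6 could be named, of which 1 was at least 2-fold higher in pretreated cells and 1 lower, beside 2.83% and 7.12% of all compared loci. Of the 6, the authors' deposited table called 2 higher and 0 lower, where 3.91% of all tested rows were called higher and 11.9% lower. Usp18, a brake on the receptor, had 184 FPKM in the naive and 1034 FPKM in the pretreated library. Irf9, a subunit of ISGF3, was the other one called, with 30.8 FPKM in the naive and 58.2 FPKM in the pretreated library. Irf1, an interferon-induced transcription factor, had 555 FPKM in the naive and 263 FPKM in the pretreated library, a change of -1.08 that had no call and lay within 2-fold after centring (-0.92). Of 16 interferon-stimulated effector genes, 9 could be named, of which 7 were at least 2-fold higher and 0 lower, against the same 2.83% and 7.12%, with a median change of 3.75. The difference of Slfn2 (3.71) was close to that of Rsad2 (3.75), which encodes the antiviral protein viperin, and below that of Ifit3 (4.50), which encodes an antiviral RNA-binding complex subunit. Slfn8 (1.39) was below Oasl1 (1.73) and above the effector genes Gbp2 (0.99) and Eif2ak2 (0.27), which had no call. Slfn9 (0.05) was near the receptor chain gene Ifnar2 (0.06).

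The identity of the cells was checked on markers that could be named. Of 8 fibroblast markers, 5 could be named. Vim had 917 FPKM in the naive and 704 FPKM in the pretreated library, and Pdgfrb had 44.98 FPKM and 47.8 FPKM. The collagen genes had lower values in the pretreated library, with 521 and 293 FPKM for Col1a2 and 111 and 69.1 FPKM for Col3a1, and no call in the authors' deposited table. Thy1 was low, at 0.144 and 0.293 FPKM. The median change of the 5 markers was -0.38. The only leukocyte marker of 9 that could be named, Csf1r, had 0.0479 FPKM in the naive and 0.0168 FPKM in the pretreated library. The endothelial marker Pecam1 had 0.0629 FPKM and 0.0204 FPKM. The part of other cell types in the Schlafen levels was not tested beyond these values.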

How the data were processed

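The authors deposited 1 table that compares the naive and the pretreated library at 1 h, with FPKM values per locus, p-values and q-values, and a test statistic, a score. Per the submitters' processing notes, TopHat and Cufflinks 1.2.1 were used with mm9; other settings are not given in the sources used here. Absolute depth is unknown, so no counting interval could be formed from FPKM.

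The change was the difference of log2(FPKM + 1), over loci whose FPKM averaged 1 or more, with 24 loci of status FAIL or HIDATA left out (pandas 2.3.3, NumPy 2.4.6). Starts were raised by 1. Intervals divide the log2 ratio by the deposited statistic, whose 2-sided normal tail differs from the deposited p-value by at most 2.86e-06 among tested loci above 0 in both libraries (SciPy 1.17.1). Promoters were aligned with Biopython 1.88. Counting was tested on simulated data.

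The table holds UCSC transcript IDs, which the name tables do not hold. A locus alone in its span was named where an end fell exactly on a GENCODE M21 or RefSeq gene end under the position shift shared by at least 10 of the 30 nearest loci of identical span; 7582 of 15883 loci were named. No position was converted for printing. In the Schlafen region 12 of 16 span ends matched under 1 shift, and the span of Slfn1 lay inside that gene. Rows sharing a span were told apart by locus numbers, whose block matched the strand at 705 of 709 named loci of chromosome 11. Numbers followed position in 953 of 953 consecutive pairs. Both checks used only loci alone in their span, so rows sharing a span were not checked. The border between the blocks was set where the match to the strand was best.

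All rows of the region, the 5 nearest rows on each side and counts over fixed lists with examples are reported; the members and lists were chosen with earlier results of these data known. A listed gene is not reported here.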

Additional observations from a re-analysis of the deposited data

How the results depend on the processing

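No replicate could be dropped from groups of 1 library. No paired analysis was possible, again because each group has 1 library. The count of 2 Schlafen region rows at least 2-fold higher was unchanged under a pseudocount of 0.1, centring, no filter, a minimum mean of 5 FPKM, restriction to loci with a transcript ID, and the 8 Schlafen rows alone. It was 1 at 4-fold. With both a pseudocount of 0.1 and no filter, a setting chosen after seeing the data as was that of 8 rows, it was 4, with Slfn4 and Gm20234 added, and 2 rows, Slfn1 and Slfn3, were lower; over all loci this setting gave 1150 higher and 2230 lower (6.55% and 12.7%). Over all loci, 289 were higher and 728 lower; these were 465 and 1175 with a pseudocount of 0.1, 99 and 143 at 4-fold, 176 and 452 at a minimum of 5 FPKM, and 391 lower with a transcript ID. Centring gave 423 and 527. The region's median change of 0.38 was 0.59 with a pseudocount of 0.1, 0.54 when centred, 0.15 with no filter, 0.72 at a minimum of 5 FPKM and 0.53 with a pseudocount of 0.1 and no filter. Centring and the pseudocount of 0.1 alone kept the same 5 rows and changed only how their values are computed. The filter settings changed the rows, to 10 with no filter and 4 at a minimum of 5 FPKM. Of 20 single-row values under an alternative, 1 changed sign, that of Slfn1 when centred (0.02). Depth limits Slfn1, Slfn3, Slfn4 and Unc45b, whose values near 0 rest on an unknown number of reads.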
